A study of Mus musculus with 11 samples.

Results

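The 10 genes described here encode calcium-binding proteins, called buffers here (Calb1, Calb2, Pvalb, Ocm, S100a1 and S100b), and calcium pumps (Atp2b2, Atp2b1, Atp2a3 and Atp2a2). They were picked by symbol out of the 24898 genes listed in at least 1 of the deposited tables. All 10 are listed at P1 and P7, 9 at E16 (without Atp2a3) and 8 at E14 (without Atp2a3 and Ocm). The study dissociated the cochlear epithelium of wildtype CD1 mice and captured single cells in droplets at embryonic day 14 (E14), embryonic day 16 (E16), postnatal day 1 (P1) and postnatal day 7 (P7). The 4 ages have 2, 3, 4 and 2 libraries in that order, with those of P7 numbered 4 and 5, and each library is a collection pooled from several animals of a litter. No genotype or treatment differs between them, so age and cell group are what can be compared.

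Hair cells (HCs) turn sound into current through channels that let in calcium. Calcium that enters through voltage-gated channels at their base triggers the release of transmitter. Mobile EF-hand proteins such as the calbindins and parvalbumins bind the calcium that enters, and 2 families of pumps remove it. PMCA pumps, encoded by Atp2b genes, export it across the plasma membrane, whereas SERCA pumps, encoded by Atp2a genes, move it into the endoplasmic reticulum (ER). Inner hair cells (IHCs) are the main afferent receptors, outer hair cells (OHCs) amplify motion, and Kölliker's organ (KO) is a transient epithelium beside them that is known for spontaneous calcium waves before hearing begins.

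The members lie on 8 chromosomes (mm10, GENCODE M21 annotation). Calb1 is at chr4:15881264-15908064, plus strand, Calb2 at chr8:110137502-110168210, minus strand, and Pvalb at chr15:78191114-78206400, minus strand. Ocm, the gene of oncomodulin (β-parvalbumin), is at chr5:144019804-144026670, minus strand. S100a1 is at chr3:90511034-90514392, minus strand, and S100b at chr10:76253853-76261159, plus strand. Among the pump genes, Atp2b2 is at chr6:113743831-114042613, minus strand, Atp2b1 at chr10:98914406-99026143, plus strand, Atp2a3 at chr11:72961169-72993044, plus strand, and Atp2a2 at chr5:122453513-122502225, minus strand. Of these, Atp2b2 and Atp2a2 overlap other annotated genes on their own strand (Gm44167 in Atp2b2, Gm43359 and Gm43360 in Atp2a2), so reads of those pairs may have been split or left uncounted.

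Upstream sequence is shown for the parvalbumin genes Pvalb and Ocm, whose levels have opposite orders in the 2 hair cell types, and for the pump gene Atp2a3, found mainly in IHCs. Each run holds the 200 bases (RefSeq, GRCm38.p6) ahead of the outermost start that RefSeq gives the gene, written 5′ to 3′ on the gene's strand.
Pvalb, chr15:78206401-78206600, minus strand: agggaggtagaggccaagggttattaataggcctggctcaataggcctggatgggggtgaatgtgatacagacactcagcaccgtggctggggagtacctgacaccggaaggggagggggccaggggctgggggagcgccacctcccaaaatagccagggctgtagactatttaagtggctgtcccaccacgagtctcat
Ocm, chr5:144050641-144050840, minus strand: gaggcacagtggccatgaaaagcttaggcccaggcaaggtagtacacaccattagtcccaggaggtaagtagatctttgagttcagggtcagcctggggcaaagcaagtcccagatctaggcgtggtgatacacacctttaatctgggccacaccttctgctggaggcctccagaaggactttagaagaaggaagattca
Atp2a3, chr11:72960969-72961168, plus strand: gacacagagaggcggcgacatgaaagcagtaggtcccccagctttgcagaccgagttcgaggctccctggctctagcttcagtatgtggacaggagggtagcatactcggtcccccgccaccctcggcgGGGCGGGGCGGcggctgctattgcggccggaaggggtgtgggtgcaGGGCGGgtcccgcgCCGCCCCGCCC
Capitals mark the GC box GGGCGG on either strand, which overlaps itself where runs are joined. It matched at 5 places in the Atp2a3 window and at 0 in the others, and 31.0% of 32851 promoter windows of the same length hold it. The E-box CANNTG (in 58.2% of windows) and the TATA box TATAAA (in 9.96%) matched in none of the 3, which says only that these letters are not in these windows. RefSeq starts Ocm 24.0 kb upstream of where GENCODE does, so the Ocm window may not be the start that cochlear cells use. Promoter entries were found for 7 of the 10 members.

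Levels are given as UMIs per 1000000 (CPM), where a UMI is 1 captured transcript, taken in each cell and averaged over the cells of a group in each library. Transcripts are counted once at their 3′ end, so that a level does not scale with transcript length. The 11 libraries hold 30634 cells (1247 to 5598 each) and 3828399 to 23523802 UMIs, with medians of 2478 to 5647.5 UMIs per cell. The libraries share at most 36 cell barcodes (0.923% of the smaller library of that pair), and 0.958% is the largest share in any pair. Of the P1 libraries, replicates 1 and 4 stand apart, with more Calb1 in hair cells than replicates 2 and 3, and without both of them 1 member call of those made on P1 libraries was lost, that of Ocm between the hair cell types. Values below follow the order of the replicate numbers.

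Cells were grouped by counts of marker genes, none of them a member, since no cell types are given in the files used here. A cell counted as a HC with UMIs of at least 6 of 16 markers such as Pou4f3, Myo7a and Gfi1, which gave 41, 529, 943 and 220 HCs at E14, E16, P1 and P7. Among them, 10, 54, 159 and 77 passed as IHCs and 1, 79, 559 and 142 as OHCs, with at least 2 markers of their own type and fewer of the other. At E16, 396 of the 529 HCs passed as neither, and at E14 too few HCs passed as OHC for the types to be compared. The cutoffs were set after the marker counts had been seen. At E14, 14 cells had exactly 5 HC markers and 12 of the 41 HCs had 6, so that the edge of the gate held a large share of the group at that age. Cells with 5 markers numbered 22, 18 and 2 at the 3 later ages, and those with 6 numbered 22, 8 and 0. Summed levels of the 16 HC markers were 21677 to 27816 CPM in the IHC and OHC groups at P1 against 252.3 to 327.7 CPM in other cells, and at P7 14671 to 16620.1 CPM against 187.4 to 190.8 CPM. The gate counts these same markers, so that a contrast in their sum follows from it and is no check of the gate.

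Tests were made with limma over all genes that averaged 10 CPM or more, on log2(CPM + 10), with the library as a block within an age, and each difference is given with its standard error (SE) and a p adjusted over all genes tested. Of the members that passed that filter, 4 of 7 differed between HCs and other cells at E14, 8 of 8 at E16, 9 of 9 at P1, then 10 of 10 at P7. The groups are unlike throughout, however: 7.62%, 39.3%, 68.8% and 61.2% of all genes tested were called in these comparisons. Members higher in HCs numbered 3, 6, 8 and 9, where 3.34%, 19.6%, 40.1% and 33.6% of all genes were. The median log2 difference was 1.50 over the members tested and 0.13 over all genes tested at P1, and 4.16 over the members tested and 0.12 over all genes tested at P7. With 2 to 4 libraries a group, the spread in all tests given here was drawn mostly from that of the other genes. It was drawn wholly from them in HCs against other cells at E14, between KO groups at E14 and P7, and in IHCs against OHCs at E16, and IHCs against OHCs at P7 rest on 2 libraries. Calb2, Pvalb, Ocm, Atp2a3 and Atp2b2 stayed under 10 CPM in other cells and passed the filter through HCs alone, as did S100b at E14, whereas Calb1 at E14 and S100b at P1 passed through other cells. A gene that is under 10 CPM in 1 of 2 groups had to differ to be tested, and the size of its difference depends on the pseudocount, so that these differences, the counts and the medians describe the members and carry no weight as a test. The 2 members outside this direction were Calb1, lower in HCs at E14 and E16 and higher at P1 and P7, and S100b, lower in HCs from E16 on. Without pairing by library the E14 call of Calb1 was lost (adjusted p = 0.0546).

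**Figure D1:**
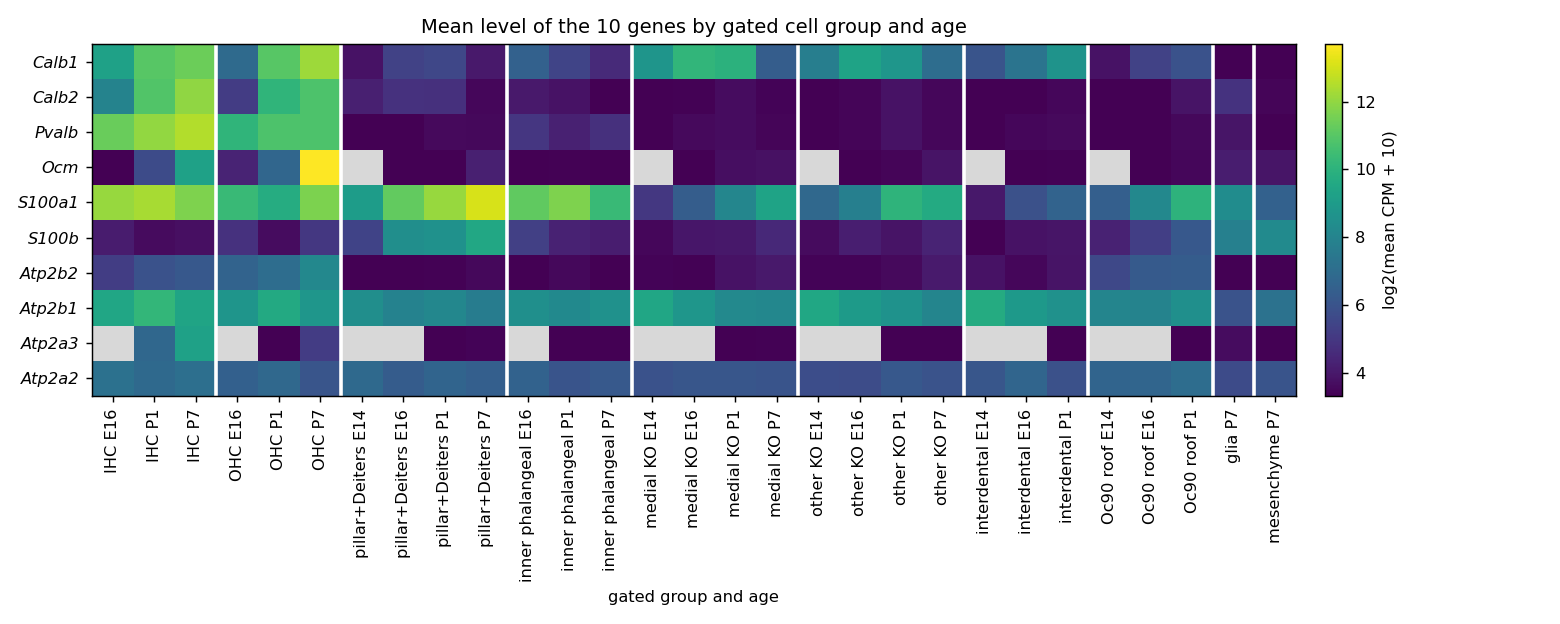
Level of each gene as log2 of its mean CPM over libraries plus 10 (colour), in 10 marker-gated groups at each age with at least 5 cells in 2 or more libraries. Columns carry the name of their gate. The pillar and Deiters gate counts Fgfr3 and Prox1, which the study used as lateral prosensory markers, so that name may not hold at E14 and E16. Grey marks a gene that is not listed in the table of that age. Calb2, Pvalb, Ocm and Atp2a3 are dark outside the IHC and OHC columns, S100a1 is bright in supporting cells too, and Calb1 in KO until P1.

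Ocm is known for its abundance in mature OHCs, and its RNA went from near 0 at E16 to the highest level of any member at P7. In OHCs its level was 0, 20.6 and 10.5 CPM in the 3 libraries of E16, 166, 60.3, 39.6 and 121 CPM in the 4 of P1, and 13848 and 12759.6 CPM in the 2 of P7. No P7 library overlapped any earlier one, and the P7 mean was 138 times that of P1. On the log2(CPM + 10) scale, the rise in OHCs was 7.14 ± 0.40 (SE), adjusted p = 7.15e-09. IHCs rose too, from 23.1, 51.1, 33.5 and 60.8 CPM at P1 to 606 and 608 CPM at P7 (log2 difference 3.63 ± 0.39 (SE), adjusted p = 9.92e-07). Markers of OHCs summed to 522.1 to 695.6 CPM in P7 IHCs, from 3 of the 9 measured, against 2683 to 3084 CPM in P7 OHCs. The part of OHC RNA in the IHC values of Ocm was not tested.

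The Ocm difference between the HC types was therefore far wider at P7. OHCs exceeded IHCs 22.8 and 21.00 times in the 2 P7 libraries, and the IHC minus OHC log2 difference was -4.43 ± 0.08 (SE), adjusted p = 2.93e-23. The lowest OHC at P7 had 1874 CPM and the highest 37678 CPM, while the highest IHC had 3460.5 CPM. After each cell was thinned to 1500 UMIs, Ocm was found at P7 in 142 of 142 cells (100%, 95% interval 97.4% to 100%) of OHCs and 31 of 77 cells (40.3%, 95% interval 29.2% to 52.1%) of IHCs, compared with 22 of 3023 cells (0.728%, 95% interval 0.457% to 1.10%) of the other cells. Median depths of the 3 groups were 6698.5, 7315 and 4577 UMIs. Without thinning the shares were 100%, 74.03% and 1.39%. Intervals of shares given here pool the cells of an age over its libraries. They cover counting error only, not the spread between libraries.

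At P1 the same gene gave a weaker contrast. The IHC minus OHC log2 difference was -0.92 ± 0.26 (SE), adjusted p = 0.0137, and IHCs were lower in 4 of 4 libraries. Leaving out replicate 1 ended the call (adjusted p = 0.346), as did leaving out both replicate 1 and 4, a pseudocount of 1 CPM (adjusted p = 0.0533) and no filter on low values (adjusted p = 0.145). Gates of 1 marker fewer (0.0536), leaving out cells of over 3000 genes (0.088) and keeping cells of 2 gates (0.0818) ended it too, and the libraries of the 2 types overlapped.

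Pvalb, the gene of α-parvalbumin, was detectable in HCs from the first age. Levels in HCs were 135 and 373 CPM at E14, 1063, 1309 and 1255 CPM at E16, 2676, 2601, 2297 and 1385 CPM at P1 and 2948 and 3445 CPM at P7. Other cells stayed between 0.389 and 8.14 CPM over all 11 libraries. The rise from E14 to E16 was 2.36 ± 0.33 (SE), adjusted p = 0.00115 on the log2 scale. From E16 to P1 it was 0.84 ± 0.23 (SE), adjusted p = 0.0197, a call that was lost within IHCs and within OHCs (adjusted p = 0.121 and 0.107). It was also lost without E16 replicate 1, E16 replicate 2 or P1 replicate 2 (adjusted p = 0.107, 0.0589 and 0.076), with no filter on low values (0.0925) and under median-ratio scaling (0.0833).

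Pvalb was higher in IHCs than in OHCs at each age tested. IHC levels were 2381, 2211 and 3130.1 CPM at E16, 5027, 4857, 4019.8 and 2689 CPM at P1 and 5215 and 6542 CPM at P7. OHC levels were 881, 1187 and 1194, then 1921, 2021, 1946 and 1158, then 1633 and 1896 CPM. The groups did not overlap at any of the 3 ages, and the log2 differences were 1.23 ± 0.16 (SE), adjusted p = 1.08e-11 at E16, 1.22 ± 0.06 (SE), adjusted p = 4.64e-19 at P1 and 1.73 ± 0.08 (SE), adjusted p = 1.89e-14 at P7. Hence the 2 parvalbumin genes had opposite orders in the 2 HC types.

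Calb2 encodes calretinin, a fast buffer. In HCs its level was 101 and 123 CPM at E14 and 34.97, 49.6 and 91.3 CPM at E16, a difference that did not pass (log2 -0.91 ± 0.38 (SE), adjusted p = 0.162). It then reached 1859, 992, 657 and 870.2 CPM at P1 and 2996 and 2106 CPM at P7. The step from E16 to P1 was the largest of any member over that interval (log2 difference 3.98 ± 0.33 (SE), adjusted p = 1.06e-06), and it was called within IHCs and within OHCs alike. From P1 to P7 the rise was 1.30 ± 0.35 (SE), adjusted p = 0.0156, called within IHCs but not within OHCs (adjusted p = 0.13), and lost when either P7 library was left out (adjusted p = 0.215 and 0.0866) or with no filter on low values (0.0587).

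Calretinin RNA was also higher in IHCs. At P7 IHCs had 4472 and 3516 CPM and OHCs 2145 and 1402 CPM, with no overlap. At P1 the IHC values were 2952, 1801, 1298 and 1524 CPM and the OHC values 1989, 859.7, 614 and 885 CPM, and within each of the 4 libraries the IHCs were higher. The log2 differences were 0.87 ± 0.08 (SE), adjusted p = 3.81e-11 at P1 and 1.19 ± 0.09 (SE), adjusted p = 3.33e-10 at P7. At E16 IHCs had 199, 151 and 362 CPM and OHCs 38.4, 20.2 and 19.2 CPM. That difference was 2.73 ± 0.62 (SE), adjusted p = 0.00395, a call that did not hold without replicate 3 (adjusted p = 0.635) without replicate 2 (adjusted p = 0.0775) or with a pseudocount of 1 CPM (adjusted p = 0.437).

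**Figure D2:**
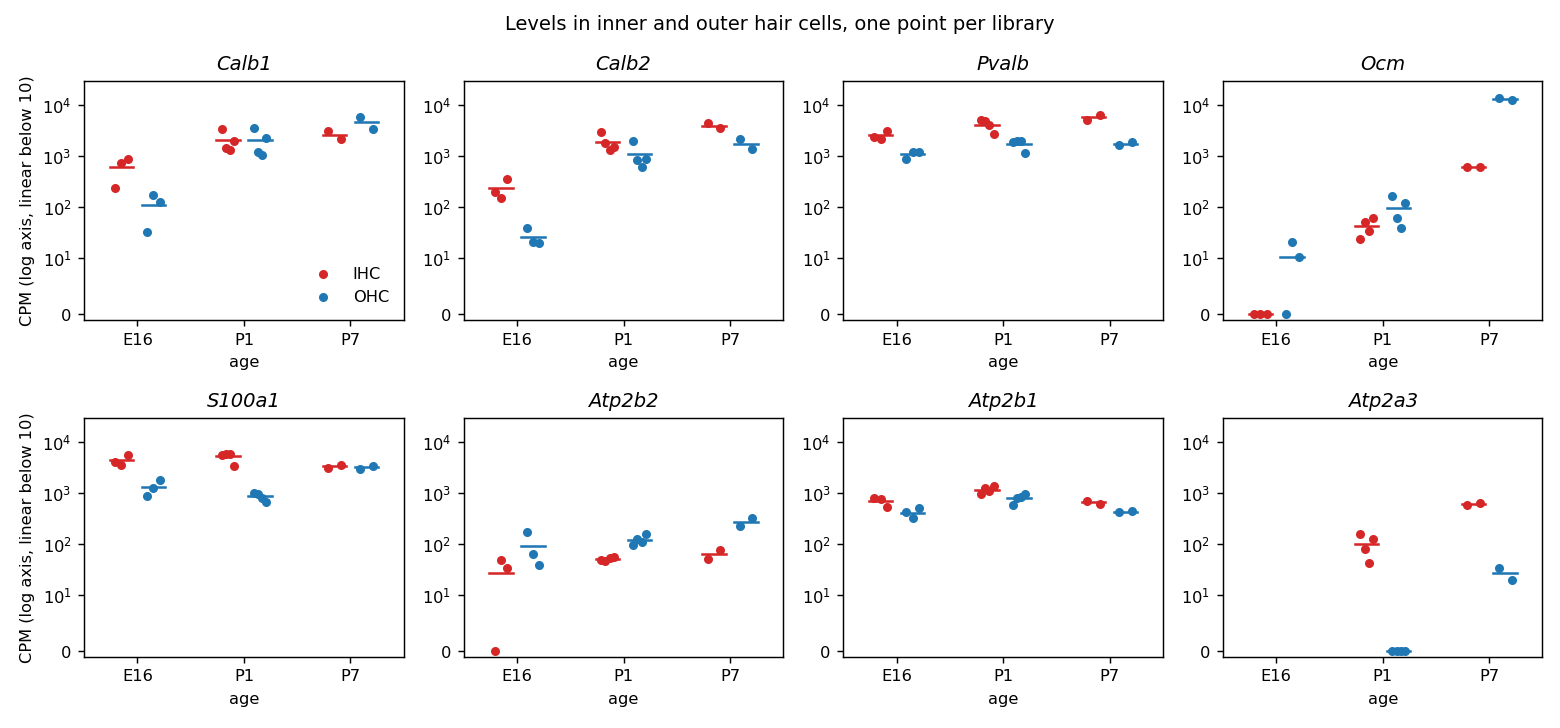
Level in CPM (log axis, linear below 10) of 8 genes in IHCs (red) and OHCs (blue) by age, with a point for each library and a line at the mean. Ocm in OHCs rises to 13848 and 12760 CPM at P7, S100a1 is separated by type at E16 and P1 but not at P7, and Atp2a3 is at 0 in all 4 P1 OHC points.

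Calb1, the gene of calbindin-D28k, was higher in medial KO than in HCs at E14 and E16, and higher in HCs at P7. At E14 HCs had 12.1 and 0 CPM while KO cells with medial markers had 447 and 388 CPM. At E16 the values were 150.5, 228 and 218 CPM in HCs and 919.8, 1140.1 and 1368 CPM in medial KO. At P1 HCs reached 3209.7, 1224, 999.5 and 2137 CPM, beside 1613, 1013, 963 and 461 CPM in medial KO of the same libraries. By P7 HCs had 4819.6 and 2997 CPM and medial KO 92.3 and 56.6 CPM, so the order had turned around with no overlap at either end. The medial gate took a different share of KO cells at each age, as given below.

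A rise in HCs and a fall in KO made up that turn. In HCs the log2 rise was 3.79 ± 0.40 (SE), adjusted p = 1.72e-04 from E14 to E16 and 3.06 ± 0.32 (SE), adjusted p = 1.33e-05 from E16 to P1. The first of these sets E16 against 1 UMI in 41 HCs at E14 (a mean of 6.03 CPM), so that Calb1 was tested through E16 alone and the size of that rise depends on the pseudocount. The P7 minus P1 difference of 1.15 ± 0.39 (SE), adjusted p = 0.0519, did not pass for all HCs, while within OHCs it did (log2 1.30 ± 0.41 (SE), adjusted p = 0.0287). In all KO cells together, Calb1 rose from E14 to E16 (log2 1.68 ± 0.18 (SE), adjusted p = 0.00144), did not pass the test from E16 to P1 (log2 -0.17 ± 0.33 (SE), adjusted p = 0.785), and fell from P1 to P7 (log2 -3.04 ± 0.40 (SE), adjusted p = 8.81e-04). KO levels were 1428, 947, 899 and 428 CPM at P1 and 96.4 and 92.7 CPM at P7, and the thinned share of KO cells with a Calb1 UMI went from 4785 of 10034 cells (47.7%, 95% interval 46.7% to 48.7%) to 218 of 1983 cells (10.99%, 95% interval 9.65% to 12.5%). These intervals do not cover the spread between libraries. At P7 the KO gate took 54.0% to 63.0% of a library, and KO markers summed to 7666 to 8905 CPM in ungated cells too. No gate was made for the Claudius and outer sulcus cells that the study names at P7, so other cells may be in the P7 KO group.

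Calb1 also turned around between HC types. IHCs had 239, 719 and 866 CPM and OHCs 32.8, 174 and 123 CPM at E16 (log2 difference 2.42 ± 0.41 (SE), adjusted p = 4.27e-06). At P1 the 2 types differed by 0.08 in log2, with a 95% interval of -0.07 to 0.22, which did not pass. At P7 IHCs had 3072 and 2176 CPM and OHCs 5933 and 3408 CPM, lower in IHCs within both libraries (log2 difference -0.80 ± 0.08 (SE), adjusted p = 1.07e-07). The E16 call was lost with a pseudocount of 1 CPM (adjusted p = 0.0543).

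S100a1 encodes an EF-hand protein that was the most abundant buffer RNA in E14 HCs and was shared with supporting cells. HC levels were 1373 and 1862 CPM at E14, 1867, 1787 and 2329 CPM at E16, 2071, 2141, 1976 and 1045 CPM at P1 and 3029.7 and 3434 CPM at P7. Pillar and Deiters cells, which hold up the HCs, had 5819, 4828, 4348 and 2304 CPM at P1 and 7974 and 9186 CPM at P7. At both ages every pillar and Deiters value lay above every value of the pooled HCs. At P1 this did not hold for IHCs alone, which are given next. Markers of pillar and Deiters cells summed to 259.5 to 457.8 CPM in P7 OHCs and 273.5 to 287.1 CPM in P7 IHCs, against 10966 to 12067 CPM in the cells they mark, and their part in the HC values was not tested.

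Between HC types, S100a1 was higher in IHCs at E16 and P1, while the P7 difference did not pass the test. IHCs had 3969.9, 3491 and 5605 CPM at E16 and 5674, 5895, 5908 and 3403 CPM at P1, with no overlap with OHCs, which had 854, 1272 and 1757 CPM at E16 and 1004, 943, 810.1 and 653 CPM at P1. At P7 the values were 3128 and 3519 CPM in IHCs and 2994 and 3392 CPM in OHCs. The log2 differences were 1.77 ± 0.13 (SE), adjusted p = 3.19e-37 at E16 and 2.58 ± 0.07 (SE), adjusted p = 8.61e-28 at P1. At P7 the difference was 0.06, with a 95% interval of -0.10 to 0.22. The OHC level rose from P1 to P7 by 1.91 ± 0.26 (SE), adjusted p = 5.23e-05, in log2, and the IHC change of -0.62 ± 0.27 (SE), adjusted p = 0.208, did not pass.

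S100b, a marker of glia and of some supporting cells, was low in HCs. HC libraries had 0.960 to 5.71 CPM at P1 and 2.61 and 30.1 CPM at P7, where other cells had 71.1 and 104 CPM. The HC against other cells log2 difference was -1.63 ± 0.18 (SE), adjusted p = 1.20e-05 at P1 and -2.10 ± 0.28 (SE), adjusted p = 2.28e-04 at P7. Pillar and Deiters cells had 615, 383, 337 and 148 CPM at P1 and 771 and 697 CPM at P7. At P7 glia had 309 and 136 CPM and mesenchyme 202 and 398 CPM, and the 7 and 10 cells gated as inner phalangeal cells had 0 and 15.8 CPM. Thinned to 1500 UMIs, 78 of 151 cells (51.7%, 95% interval 43.4% to 59.9%) of pillar and Deiters cells had an S100b UMI at P7, compared with 4 of 142 cells (2.82%, 95% interval 0.773% to 7.06%) of OHCs. These intervals too cover counting error only.

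When pillar and Deiters cells were tested against all other non-HC cells, 5 of 6 members differed at P1 and 3 of 5 at P7, where 41.3% and 34.0% of all genes did. S100b was higher by 4.23 ± 0.17 (SE), adjusted p = 1.00e-08 at P1 and by 3.60 ± 0.18 (SE), adjusted p = 1.48e-12 at P7, in log2. S100a1 was higher by 3.30 ± 0.08 (SE), adjusted p = 1.18e-09 and 3.48 ± 0.12 (SE), adjusted p = 2.88e-15 at the same ages. Calb1 was lower at both, with differences of -4.37 ± 0.19 (SE), adjusted p = 1.32e-08 and -2.40 ± 0.26 (SE), adjusted p = 2.56e-07. At P7 pillar and Deiters cells had 7.25 and 5.44 CPM of Calb1, under the filter, so it was tested through the other cells alone. That difference depends on the pseudocount, and the call, 1 of the 3 at P7, carries no weight as a test. KO cells were 10034 of the 12061 other non-HC cells at P1 and 1983 of 2872 at P7. Summed HC marker levels in pillar and Deiters cells were 312.1 to 414.2 CPM at P1 and 570.7 to 747.0 CPM at P7, and their part in the low HC buffer values of those cells was not tested.

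**Figure D3:**
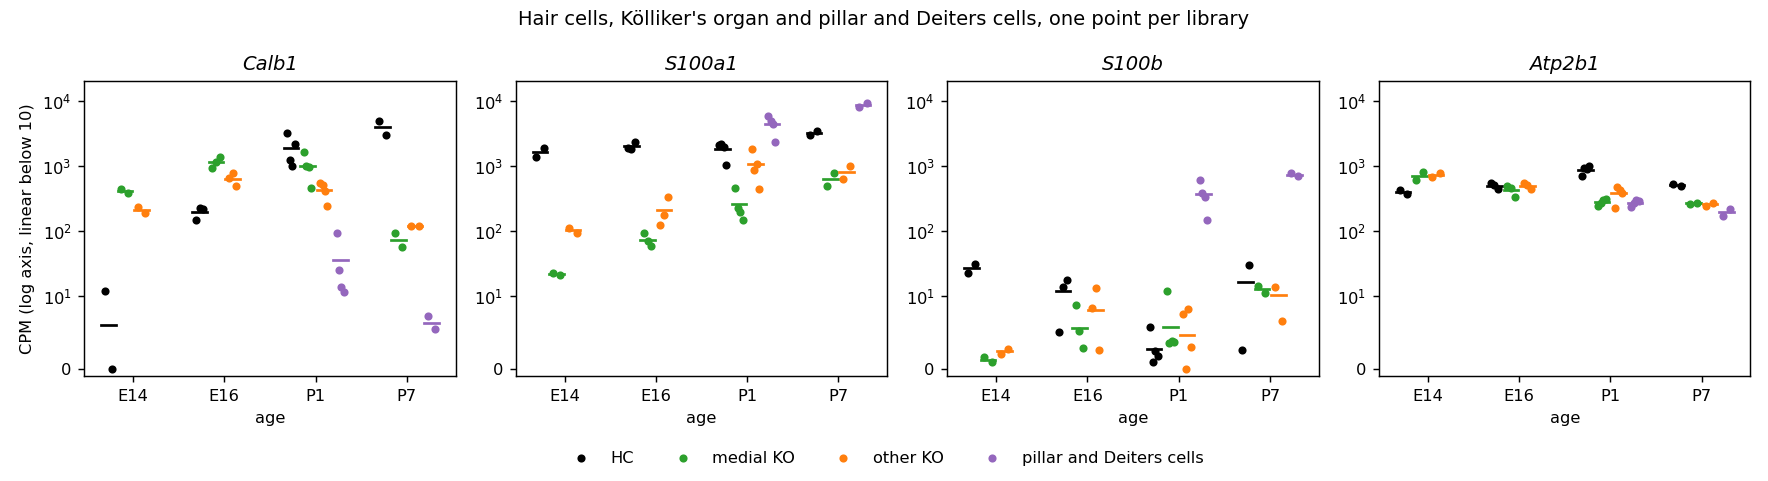
Level in CPM (log axis, linear below 10) of 4 genes by age in HCs (black), medial KO (green), other KO (orange) and, at P1 and P7, pillar and Deiters cells (purple), with a point for each library and a line at the mean. Calb1 is lowest in HCs at E14 and highest there at P7, where KO is low, and S100b is highest in pillar and Deiters cells at P1 and P7.

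Among the pumps, Atp2b2 encodes PMCA2, the pump of the hair bundle whose loss causes deafness in mice. Its HC level was 11.6 and 0 CPM at E14, 52.1, 36.4 and 24.7 CPM at E16, 85.03, 103, 92.5 and 127 CPM at P1 and 162 and 241 CPM at P7. The HC against other cells log2 differences were 1.82 ± 0.23 (SE), adjusted p = 3.76e-06 at E16, 2.997 ± 0.17 (SE), adjusted p = 8.56e-08 at P1 and 3.81 ± 0.20 (SE), adjusted p = 1.26e-06 at P7, where other cells averaged 3.13, 4.09 and 4.83 CPM, under the filter. Oc90-positive roof cells also held Atp2b2 RNA. At E14 they had 35.4 and 39.9 CPM (31 UMIs), where the HC values rest on 1 UMI, and later 58.3, 114 and 28.3 CPM at E16 and 90.6, 33.98 and 88.4 CPM in the 3 P1 libraries that hold at least 5 of them. KO had 5.67 and 8.09 CPM at P7.

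OHCs carried more Atp2b2 than IHCs. The OHC levels were 94.5, 125, 108 and 154 CPM at P1 and 224 and 323 CPM at P7, and the IHC levels 48.2, 46.1, 53.6 and 55.9 CPM at P1 and 49.8 and 77.04 CPM at P7. The types did not overlap at either age, and the IHC minus OHC differences in log2 were -1.08 ± 0.19 (SE), adjusted p = 7.24e-05 and -1.95 ± 0.26 (SE), adjusted p = 8.27e-06. At E16 the difference of -1.55 ± 0.78 (SE), adjusted p = 0.623, did not pass. With age, all HCs rose from E16 to P1 (log2 1.26 ± 0.27 (SE), adjusted p = 0.00382), although neither type passed alone (adjusted p = 0.351 in IHCs and 0.427 in OHCs), and OHCs rose from P1 to P7 (log2 1.12 ± 0.29 (SE), adjusted p = 0.0105).

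Atp2b1 encodes PMCA1, the widely expressed form, and its RNA was found in every group of the heat map. HCs had 429 and 377 CPM at E14 and 542, 512 and 448 CPM at E16, where other cells had 555 and 639.6 CPM and 451, 448 and 353 CPM. At P1 HCs had 691, 916, 883 and 1006 CPM against 248, 304, 319 and 331 CPM, and at P7 523 and 497 CPM against 232 and 248 CPM. The HC against other cells log2 difference at E14 was -0.56 ± 0.20 (SE), adjusted p = 0.0589. It was 0.26 ± 0.09 (SE), adjusted p = 0.0226 at E16, 1.50 ± 0.08 (SE), adjusted p = 4.69e-08 at P1 and 1.06 ± 0.15 (SE), adjusted p = 2.67e-04 at P7. The E16 call was lost without replicate 2 or without replicate 3 (adjusted p = 0.0794 and 0.0763), without pairing by library (0.256), with 1 marker fewer in each gate (0.1) and with no filter on low values (0.0537).

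IHCs exceeded OHCs in Atp2b1 at P1 (log2 difference 0.55 ± 0.08 (SE), adjusted p = 2.31e-06) and at P7 (0.60 ± 0.16 (SE), adjusted p = 0.0151), the reverse of Atp2b2. Within each P1 and P7 library the IHC level was 1.31 to 1.60 and 1.41 to 1.64 times that of OHCs. The HC fall from P1 to P7 (-0.75 ± 0.25 (SE), adjusted p = 0.0443) rests on few libraries, since it was lost without either P7 library (adjusted p = 0.16 and 0.235) and without P1 replicate 2 or 3 (adjusted p = 0.125 and 0.113). It was lost as well with no filter on low values (adjusted p = 0.0881), under median-ratio scaling (0.0567), without cells of over 3000 genes (0.0736), with cells of 2 gates kept (0.052) and within IHCs alone (0.0966).

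Atp2a3, the gene of SERCA3, was an IHC gene among these groups. At P1 its IHC levels were 156, 80.2, 41.8 and 125 CPM, while 0 UMIs were found in 559 OHCs. Against the floor of 3 UMIs over all those OHCs (0.792 CPM), the mean IHC level was at least 127-fold higher. At P7 IHCs had 584 and 620.4 CPM and OHCs 32.9 and 19.1 CPM, and other cells 0.596 and 0.420 CPM. The IHC minus OHC log2 difference was 4.11 ± 0.27 (SE), adjusted p = 2.45e-11 at P7, and the IHC rise from P1 to P7 was 2.60 ± 0.40 (SE), adjusted p = 1.66e-04.

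Single cells gave shares in the same order. Thinned to 1500 UMIs, Atp2a3 was found in 21 of 159 cells (13.2%, 95% interval 8.37% to 19.5%) of IHCs at P1 and 42 of 77 cells (54.5%, 95% interval 42.8% to 65.9%) at P7. OHCs gave 0 of 559 cells (0%, 95% interval 0% to 0.658%) and 8 of 142 cells (5.63%, 95% interval 2.46% to 10.8%), and other cells 2 of 3023 cells (0.0662%, 95% interval 0.00801% to 0.239%) at P7. Unthinned shares at P7 were 92.2%, 11.97% and 0.298%. These intervals and floors cover counting error only.

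Atp2a2 encodes SERCA2, the SERCA pump of most cells, and its levels were low in HCs and other cells alike. HC levels were 37.9 to 62.96 CPM at E14, 92.1 to 122 CPM at E16, 71.2 to 159 CPM at P1 and 79.1 to 84.5 CPM at P7, where other cells had 52.02 and 54.4 CPM. HCs were higher than other cells at E16 (log2 0.77 ± 0.16 (SE), adjusted p = 7.90e-04), P1 (0.65 ± 0.12 (SE), adjusted p = 5.57e-04) and P7 (0.54 ± 0.18 (SE), adjusted p = 0.0263). The P7 call was lost under median-ratio scaling (adjusted p = 0.181) and without cells of over 3000 genes (adjusted p = 0.0712). At P7 IHCs had 140.3 and 114 CPM and OHCs 43.9 and 69.9 CPM (log2 1.05 ± 0.32 (SE), adjusted p = 0.0324), a call that was also lost without cells of over 3000 genes (adjusted p = 0.196).

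Over all members, IHCs and OHCs differed in 4 of 8 at E16, 7 of 9 at P1 and 8 of 10 at P7, where 0.760%, 10.1% and 10.8% of all genes tested were called. Of these, 4, 5 and 5 were higher in IHCs, beside 0.409%, 4.52% and 5.36% of all genes. At P1 Atp2a3, with 0 UMIs in 559 OHCs, passed the filter through IHCs alone. It had to differ to be tested, and its place in the P1 counts carries no weight as a test. The IHC minus OHC difference itself moved between P1 and P7 in 4 of 9 members, beside 8.36% of all genes. It moved toward OHCs for Ocm (by -3.51 ± 0.36 (SE), adjusted p = 5.96e-08), S100a1 (by -2.53 ± 0.11 (SE), adjusted p = 9.65e-17) and Calb1 (by -0.87 ± 0.13 (SE), adjusted p = 2.27e-05). It moved toward IHCs for Pvalb (by 0.50 ± 0.10 (SE), adjusted p = 0.00118). That call was lost without P7 replicate 5 (adjusted p = 0.052), without cells of over 3000 genes (adjusted p = 0.111) and with no filter on low values (adjusted p = 0.0585). The change for Atp2b2, Calb2, Atp2b1, Atp2a3 and Atp2a2 did not pass. Without pairing by library, the IHC against OHC calls of Ocm, Calb2 and Atp2b1 at P1 (adjusted p = 0.425, 0.298 and 0.298) and of Calb1, Atp2b1 and Atp2a2 at P7 (adjusted p = 0.158, 0.276 and 0.108) were lost.

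With age, 2 of 8 members changed in HCs from E14 to E16, 7 of 9 from E16 to P1 and 5 of 9 from P1 to P7, all of them rises except Atp2b1 in the last interval. Atp2a3, which the E16 table does not list, was entered as 0 at that age and is 1 of the 7, so that 6 of the 8 members listed at E16 and tested changed. Ocm averaged 5.16 CPM in E16 HCs, under the filter, and was tested through P1 alone. From E14 to E16, Calb1 (6.03 CPM in E14 HCs) was likewise tested through E16 alone. The places of these members in the counts carry no weight as a test. Of all genes tested, 8.47%, 17.4% and 20.6% changed over the same intervals, 5.19%, 10.8% and 9.17% upward. The number of genes behind these shares moved with single libraries. For E14 to E16 it was 732, and with 1 library left out 190 (without E16 replicate 1) to 2102 (without E14 replicate 2). For E16 to P1 it was 1527, and 880 (without E16 replicate 2) to 1667. For P1 to P7 it was 1835, and 664 (without P7 replicate 5) to 2377. The E16 to P1 call of Atp2b1 was lost without P1 replicate 2, E16 replicate 2 or E16 replicate 3 (adjusted p = 0.0592, 0.0629 and 0.0505) and within IHCs (adjusted p = 0.121). The P1 to P7 call of Atp2b2 was lost without P7 replicate 4 or 5 (adjusted p = 0.0653 and 0.343) or P1 replicate 2 or 3 (0.0693 and 0.0898), within IHCs (0.821), without cells of over 3000 genes (0.0665) and with no filter on low values (0.0521). From E16 to P1, 4 of 9 members changed within IHCs and 4 of 8 within OHCs (3.23% and 8.95% of all genes). Atp2a3, again entered as 0 at E16, and Ocm, at 0 CPM in E16 IHCs, are among the 4 in IHCs. Both were tested there through P1 alone, so that this count carries no weight as a test. Within OHCs 5 of 8 changed from P1 to P7 (22.9% of all genes), and within IHCs 3 of 9 (5.61%). The share of IHCs among all HCs differs between ages, and age cannot be told apart from the collection and capture of each library.

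The summed RNA of the 6 buffers traces a different course in the 2 types. In OHCs it was 1807, 2715 and 3115 CPM at E16, 8743, 5092, 4483 and 5119 CPM at P1 and 26552 and 22902 CPM at P7, with no overlap between P1 and P7. In IHCs it was 6789, 6577 and 9979.9 CPM, then 17111, 14076, 12612 and 9669 CPM, then 16500.0 and 16360.1 CPM, and the P7 values lay within the P1 range. Hence IHCs had the larger sum within every E16 and P1 library and OHCs within both P7 libraries.

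The make-up of the sum changed in OHCs above all. Ocm was 1.90, 1.18, 0.883 and 2.36% of it at P1 and 52.2 and 55.7% at P7, and in P7 IHCs 3.67 and 3.71%. Pvalb made up 21.97, 39.7, 43.4 and 22.6% of the OHC sum at P1 and 6.15 and 8.28% at P7, while its own level differed by 0.03 ± 0.28 (SE), adjusted p = 0.95, in log2 between those ages. In P7 IHCs Pvalb was 31.6 and 39.99%, the largest single part in both libraries. No test was run on these sums, which add RNA levels and are no measure of calcium binding.

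**Figure D4:**
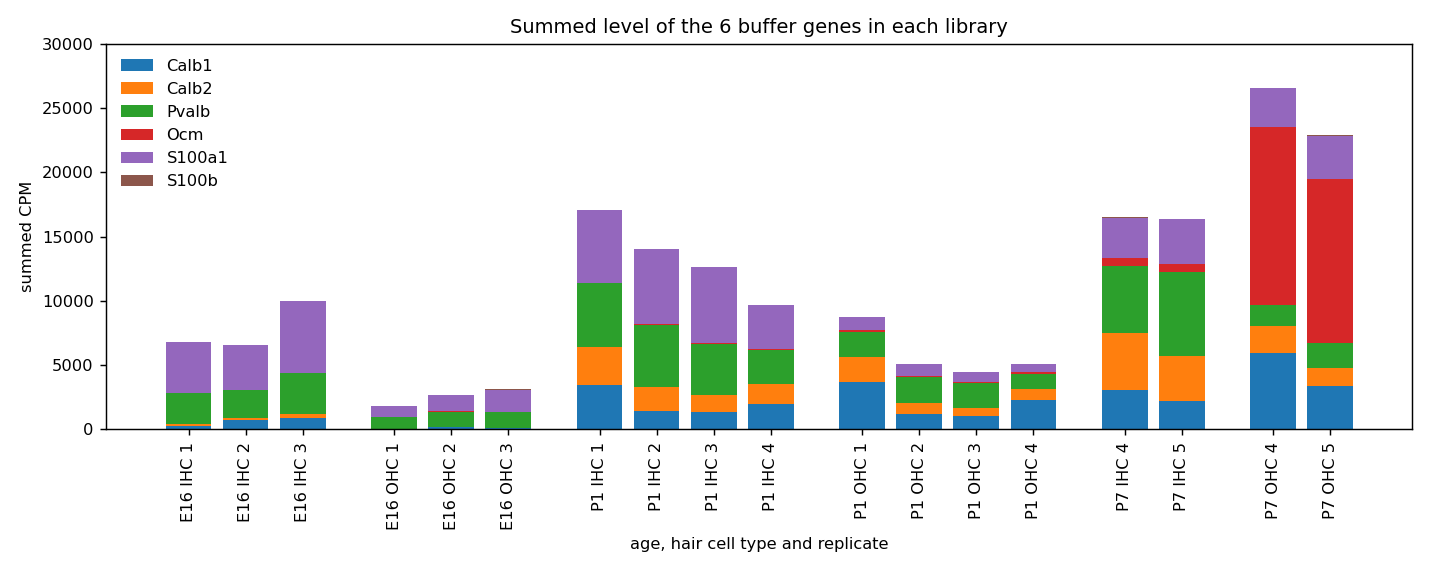
Summed CPM of Calb1, Calb2, Pvalb, Ocm, S100a1 and S100b (stacked colours) in IHCs and OHCs of each E16, P1 and P7 library, with the bar height as the total. Bars of OHCs at P7 reach 26552 and 22902 CPM, and more than 50% of each is Ocm (red).

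In Kölliker's organ only 4 or 5 members were expressed enough to test. KO cells were divided by UMIs of medial markers such as Crabp1 and Itga8, and cells in between were set aside. The medial group held 687 of 2524 KO cells at E14, 2086 of 4193 at E16, 8069 of 10034 at P1 and 413 of 1983 at P7. It need not be the same part of KO at each age, so its levels describe the gate and not a fixed region. Calb1 was higher in medial KO than in other KO at E14 (log2 0.96 ± 0.08 (SE), adjusted p = 4.82e-32), E16 (0.83 ± 0.13 (SE), adjusted p = 0.00311) and P1 (1.16 ± 0.10 (SE), adjusted p = 2.66e-07). With 1 marker more in each gate the E16 difference was 0.41 and the call was lost (adjusted p = 0.42). Other KO had 230.5 and 189 CPM at E14, 646, 784 and 490.4 CPM at E16 and 542, 514, 408 and 245 CPM at P1, below medial KO in 9 of 9 libraries. At P7 the order was reversed, with 120.0 and 119 CPM in other KO against 92.3 and 56.6 CPM (log2 -0.65 ± 0.14 (SE), adjusted p = 2.72e-04).

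S100a1 was lower in medial KO than in other KO at all 4 ages. Medial KO had 22.6 and 21.2 CPM at E14, 92.1, 70.2 and 58.5 CPM at E16, 466, 226, 197 and 149 CPM at P1 and 496 and 773 CPM at P7. Other KO had 113 and 93.1, then 125, 175 and 332, then 1826, 877, 1070.5 and 444, then 631 and 987 CPM. The medial minus other log2 difference was -1.82 ± 0.15 (SE), adjusted p = 2.70e-30 at E14, -1.31 ± 0.24 (SE), adjusted p = 0.00908 at E16, -1.94 ± 0.11 (SE), adjusted p = 1.34e-09 at P1, then -0.34 ± 0.08 (SE), adjusted p = 3.23e-04 at P7. The P7 call was lost when each gate asked for 1 marker more (adjusted p = 0.274). With no filter on low values the E16 and P1 calls were lost for S100a1 (adjusted p = 0.583 and 0.0644) and for Calb1 (adjusted p = 0.474 and 0.129).

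Calb1 and S100a1 were the 2 members called between the KO groups at each age, of 4 tested at E14, E16 and P1 and 5 at P7. Without pairing by library, both calls were lost at E16, P1 and P7. The share of all genes called was 3.96%, 1.34%, 4.16% and 5.19% in age order. The medial group was deeper, with library medians of 2693 to 5762 UMIs against 2261 to 4928 in other KO, and the part of depth was not tested. Atp2b1 and Atp2a2 did not differ between the KO groups by the test at any age.

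Across ages, 3 of 4 members changed in KO from E14 to E16, 1 of 4 from E16 to P1 and 1 of 4 from P1 to P7, beside 16.7%, 7.69% and 19.4% of all genes. From E14 to E16 Atp2b1 fell (log2 -0.70 ± 0.17 (SE), adjusted p = 0.0309) and S100a1 rose (0.70 ± 0.19 (SE), adjusted p = 0.0426), but both calls were lost without either E14 library (adjusted p = 0.173 and 0.261 for Atp2b1, 0.21 and 0.317 for S100a1). Both were also lost without E16 replicate 2 (0.0961 and 0.107), with no filter on low values (0.0904 and 0.108), under median-ratio scaling (0.104 and 0.0527) and with summed UMIs (0.0575 and 0.158), and that of S100a1 without E16 replicate 1 (0.0506). The median log2 change of all genes over that interval was -0.17. S100a1 rose again from E16 to P1 (1.33 ± 0.34 (SE), adjusted p = 0.0327), a call lost without E16 replicate 1 or 2 (adjusted p = 0.183 and 0.147) or P1 replicate 2 (adjusted p = 0.0619), with no filter on low values (adjusted p = 0.126) and with 1 marker fewer in each gate (adjusted p = 0.151).

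The other calcium genes were followed as 6 lists of 73 genes in all. Of all genes tested between HCs and other cells at P1, 68.8% were called and 40.1% were called higher in HCs, and the counts of the lists are to be read beside these shares. Against other cells at P1, 8 of the 11 tested cytosolic EF-hand genes were higher in HCs and 3 lower, with a median log2 difference of 2.06 where that of all genes was 0.13. Among them, Hpcal1 (hippocalcin-like 1) differed by 3.04 ± 0.14 (SE), adjusted p = 1.88e-08 and Cabp2, a regulator of the IHC calcium channel, by 3.59 ± 0.24 (SE), adjusted p = 3.12e-07. Of the 8 channel genes tested, 5 were higher and 2 lower (median 1.23). These include Cacna1d, the pore of the HC calcium channel Cav1.3 (3.39 ± 0.13 (SE), adjusted p = 7.38e-09), the IP3 receptor Itpr3 (3.51 ± 0.13 (SE), adjusted p = 4.89e-09) and Orai2 (1.79 ± 0.15 (SE), adjusted p = 1.41e-06). Cabp2, Cacna1d, Itpr3 and Orai2 averaged under 10 CPM in other cells and passed the filter through HCs, so that the counts and medians of these lists are descriptions only.

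Genes of the ER lumen and other S100 genes ran the other way. Of 8 ER lumen genes tested, 7 were lower in HCs and 1 higher (median -1.71), among them Rcn3 (-4.53 ± 0.11 (SE), adjusted p = 3.21e-10), Pdia4 (-4.19 ± 0.09 (SE), adjusted p = 3.21e-10) and Rcn2 (-2.69 ± 0.14 (SE), adjusted p = 6.03e-08). Of 4 S100 genes, S100a13 was higher (3.05 ± 0.16 (SE), adjusted p = 4.71e-08) and 3 were lower, with S100a11 (-4.24 ± 0.15 (SE), adjusted p = 4.14e-09) and S100a10 (-2.92 ± 0.17 (SE), adjusted p = 1.24e-07) the furthest. Of 2 other pumps and exchangers, the sodium-calcium exchanger Slc8a2 was higher (2.94 ± 0.13 (SE), adjusted p = 1.36e-08) and the Golgi pump Atp2c1 lower (-1.57 ± 0.12 (SE), adjusted p = 6.18e-07). The 5 mitochondrial uniporter genes divided into 3 higher and 2 lower, with Micu3 (0.93 ± 0.15 (SE), adjusted p = 2.92e-04), Micu2 (-0.78 ± 0.17 (SE), adjusted p = 0.00162) and Smdt1 (0.75 ± 0.08 (SE), adjusted p = 1.37e-05) the furthest. Slc8a2 and Micu3 too passed the filter through HCs alone, and Rcn3 (9.96 CPM in HCs) through other cells alone.

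Between the HC types at P7, Ryr1 was the OHC gene of widest difference among the listed channels and Cabp2 the IHC gene among the EF-hand proteins. Ryr1, the ryanodine receptor of skeletal muscle, had 153 and 191 CPM in OHCs and 0 and 3.22 CPM in IHCs (IHC minus OHC log2 -3.98 ± 0.40 (SE), adjusted p = 7.60e-08), after 0, 10.1, 0.865 and 3.40 CPM in OHCs at P1. Cabp2 had 1954 and 1701 CPM in IHCs and 191 and 79.6 CPM in OHCs (log2 3.77 ± 0.19 (SE), adjusted p = 1.76e-13). Necab2 was higher in IHCs as well (2.75 ± 0.31 (SE), adjusted p = 6.10e-07), and so were Cabp7 (2.18 ± 0.40 (SE), adjusted p = 4.84e-04) and Cacna2d2, a channel accessory subunit (2.13 ± 0.47 (SE), adjusted p = 0.00328). Cacna1d itself did not pass, with 255 and 308 CPM in IHCs and 222 and 279 CPM in OHCs.

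Of all genes tested between the types at P7, 10.8% were called and 5.36% were called higher in IHCs. Among the lists, 5 of 13 EF-hand genes were higher in IHCs at P7 and 2 lower, 1 of 11 channel genes was higher and 2 lower, and 1 of 7 ER lumen genes (Calr, 0.64 ± 0.13 (SE), adjusted p = 0.00102) and 1 of 5 uniporter genes (Smdt1, 0.42 ± 0.13 (SE), adjusted p = 0.0359) were higher. The second lower channel gene was Itpr1, at -1.58 ± 0.51 (SE), adjusted p = 0.0457. Of 3 S100 genes S100a3 was lower (-1.66 ± 0.51 (SE), adjusted p = 0.0356), and both it and Itpr1 were at 0 CPM in IHCs, so that these values depend on the pseudocount. Ryr1 (a mean of 1.61 CPM in IHCs) passed the filter through OHCs alone and Cacna2d2 (2.47 CPM in OHCs) through IHCs alone, and the same limit holds for them. Of the pumps and exchangers, neither of the 2 tested passed. Between P1 and P7, 7 of the 20 list genes named above that were tested changed in HCs, where 20.6% of all genes did, and these genes had been picked for their differences in other comparisons. Itpr3 (log2 -3.32 ± 0.29 (SE), adjusted p = 2.89e-06), Hpcal1 (-2.14 ± 0.26 (SE), adjusted p = 5.04e-05) and S100a13 (-1.65 ± 0.35 (SE), adjusted p = 0.00384) fell. Ryr1 (3.28 ± 0.30 (SE), adjusted p = 3.84e-06), Cabp2 (2.51 ± 0.41 (SE), adjusted p = 5.04e-04), Cabp7 (1.92 ± 0.27 (SE), adjusted p = 1.59e-04) and Cacna1d (1.04 ± 0.29 (SE), adjusted p = 0.0183) rose. Itpr3 at P7 and Ryr1 and Cabp7 at P1 were under 10 CPM.

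**Figure D5:**
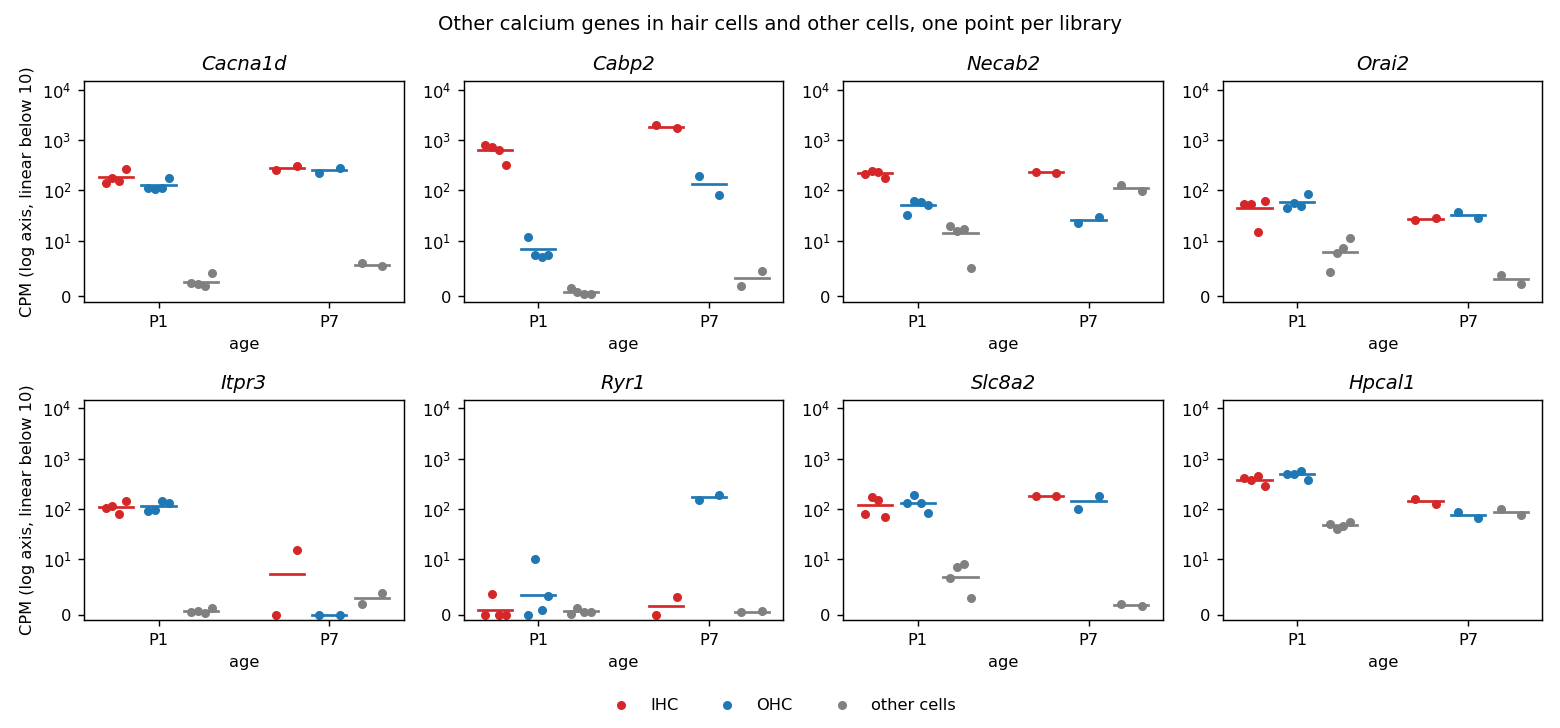
Level in CPM (log axis, linear below 10) of 8 other calcium genes at P1 and P7 in IHCs (red), OHCs (blue) and other cells (grey), with a point for each library and a line at the mean. Ryr1 reaches 153 and 191 CPM in P7 OHCs and at most 10.1 CPM elsewhere, Cabp2 and Necab2 are higher in IHCs than in OHCs, and Itpr3 lies between 79.2 and 145 CPM in IHCs and OHCs at P1 and at most at 14.8 CPM at P7.

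Over the 33 combinations of group and age that hold at least 2 libraries, each member was set beside 8710 genes that reached 50 CPM in at least 1 of them, by Pearson's r of log2(CPM + 10). These r values are descriptions across points that share libraries. The points include the pillar and Deiters gate at E14 and E16, where that name may not hold. Pvalb was most like Mmp24 (0.98), Myo7a (0.98) and Defb25 (0.98), Calb2 most like Kncn (0.98), Ap3b2 (0.98) and AC159633.2 (0.98), and Ocm most like Lmod3 (0.95), Ighm (0.94) and 9530085L11Rik (0.94), where Myo7a and Lmod3 are themselves gate markers, as is Espn below. For Atp2a3 they were Stk32c (0.98), A530016L24Rik (0.97) and Gm44799 (0.94), for Atp2b2 Cdh23 (0.94), Cdk5rap2 (0.88) and Plce1 (0.88), and for Calb1 Lmod1 (0.82), Espn (0.81) and Cntnap2 (0.81). For S100a1 they were S100a13 (0.84), Skp1a (0.81) and Tmprss3 (0.80), and for S100b Bace2 (0.88), Npy (0.77) and Smagp (0.76), of which Npy and Smagp are gate markers. For Atp2b1 they were Tox (0.79), Zmat3 (0.78) and E130308A19Rik (0.78), and for Atp2a2 Wwc1 (0.76), 2900026A02Rik (0.74) and Wnk2 (0.71). Among the members themselves, Calb2 and Pvalb were the closest pair (r = 0.927), and S100b and Atp2b1 the most opposed (r = -0.695).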

How the data were processed

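Cochlear cells were captured on the 10x Chromium platform, reads were aligned to mm10 with Cell Ranger 2.1.1, and cells were filtered and normalized in Seurat 2.0, as the methods and the submitters' processing notes state. The deposited values are the natural log of 1 plus 10000 times a gene's share of the UMIs of its cell, and the authors listed only genes found in enough cells. UMIs were worked back from them, and were whole within 2% for 100% of values above 0. Cells passing 2 gates (19, 64, 192 and 134 at E14, E16, P1 and P7) were left out, and no doublet caller was run. Most marker lists draw on tables that the study made from these libraries.

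Each cell's values were scaled to CPM and averaged over the cells of a group in each library that held at least 5. Genes that averaged 10 CPM or more were tested with limma 3.58.1 (R 4.3.3, mean trend) on log2(CPM + 10), with Benjamini-Hochberg adjustment over all genes tested, gate markers left out, and a threshold of 0.05. Comparisons within an age had the library as a block, because both groups come from the same libraries. Exact Clopper-Pearson intervals cover 95%. On simulated data, 100% and 88.7% of genes changed by 2 on the log2 scale were found for HCs against other cells at P1 and IHCs against OHCs at P7, and 80.2% for the change of the latter difference from P1 to P7. Of genes changed by 1, 100%, 45.4% and 31.3% were found in the same tests. The simulation drew both groups from the same profile with a small fixed spread between libraries. It changed only genes well detected in P1 HCs. These shares therefore do not hold for members of lower level or wider spread. A gene listed at 1 of 2 ages was entered as 0 at the other. The members, gene lists and tests were chosen with earlier results of these data known. Members are all named, and from each calcium list at most the 3 called genes of largest difference in HCs against other cells at P1 and in IHCs against OHCs at P7, of which 1 is not reported here. The alternatives were another pseudocount, filter, scaling, summed UMIs, gates of 1 marker more or fewer, leaving out cells of over 3000 genes, keeping cells of 2 gates, the block, and each library left out. Chosen after seeing the data were the fits without P1 replicates 1 and 4 and within IHCs or OHCs. Python 3.11.15, NumPy 2.4.6 and SciPy 1.17.1 were used.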

Additional observations from a re-analysis of the deposited data

Results flagged for a closer look

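Among 52 sets of 4 P1 libraries, 7 had a library far from the other 3 by Dixon's criterion, which chance meets in about 1 in 20 of single sets. The sets overlap, since HCs include IHCs and OHCs, and KO includes medial KO. The same deviation can therefore be flagged more than once, and the 7 are not to be set against that rate. Of the 7, 4 concern replicate 4. S100a1 was 1045 CPM in its HCs, with 1976 to 2141 CPM in the others, and 3403 CPM in its IHCs, with 5674 to 5908 CPM in the others. Pvalb was 1158 CPM in its OHCs, with 1921 to 2021 CPM in the others, and Atp2a2 was 138 CPM in its IHCs, with 93.7 to 100.3 CPM in the others. Replicate 1 had 92.0 CPM of Calb1 in pillar and Deiters cells, where the others had 11.7 to 25.2 CPM. Its S100b was 12.96 CPM in KO and 12.3 CPM in medial KO, where the others had 3.32 to 3.99 CPM and 3.57 to 3.86 CPM.

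The IHC minus OHC log2 difference was taken within each library, and P7 was set against P1 on it in limma. It differed for S100a1 (-2.53, adjusted p = 9.65e-17), Calb1 (-0.87, adjusted p = 2.27e-05), Ocm (-3.51, adjusted p = 5.96e-08) and Pvalb (0.50, adjusted p = 0.00118). Only 2 libraries stand behind the P7 side of each.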

How the results depend on the processing

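Of 89 member calls, 1023 values under the alternatives kept direction and call, 93 kept direction and lost the call, and 0 reversed. The number of members called fell under these settings. Without the replicate block, which pairs groups of the same library, it was 0 for medial KO against other KO at E16, P1 and P7, 4 for IHC against OHC at P1 and 5 at P7. With no filter on low values it was 0 for medial KO at E16 and at P1, 2 for HCs at P7 against P1 and 1 for KO at E16 against E14. The last was also 1 under median-ratio scaling and with summed UMIs. With 1 marker more it was 1 for medial KO at E16 and P7 and rose to 4 for HCs at E16 against E14. With 1 marker fewer it was 0 for KO at P1 against E16. A pseudocount of 1 CPM gave 2 for IHC against OHC at E16. Within IHCs it was 4 for P1 against E16 and 3 for P7 against P1, and within OHCs 4 for P1 against E16. Without P1 replicates 1 and 4 it rose to 2 for KO at P7 against P1. Single calls lost without the replicate block were also those of Calb1 and Atp2b1 in HCs against other cells at E14 and E16 (adjusted p = 0.0546 and 0.256). The same holds for Atp2a2 in pillar and Deiters cells at P1 (adjusted p = 0.0762).

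With each library left out in turn, the members called numbered 7 to 8 for HCs against other cells at E16 and 9 to 10 at P1, 3 to 4 for IHC against OHC at E16 and 6 to 7 at P1, and 4 in each fit of the IHC minus OHC difference. They numbered 2 in each fit of medial KO at E16, 2 to 3 at P1, and 4 to 5 for pillar and Deiters cells at P1. Between ages they ran from 2 to 3 (E16 against E14), 4 to 7 (P1 against E16) and 2 to 7 (P7 against P1) in HCs, and from 1 to 3, 0 to 1 and 1 to 2 in KO. Within E14 and P7 no library was left out, since 1 would remain. IHC against OHC at E14 was not run, with 1 OHC.

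Same-numbered libraries of different ages did not deviate together (r of -0.27 to 0.07 in HCs and KO), so the numbers were not taken to pair them. With the replicate block, HCs at E16 against E14 gave 4 members. No paired analysis was possible for P7 against P1 because they share 1 number. At E14 and P7 there are only 2 libraries, which limits the finding of small differences, and the part of depth was not tested.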

Other observations

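HCs that passed as neither type, 396 of 529 at E16 and 225 of 943 at P1, had levels of their own. They include 207 HCs at E16 and 61 at P1 with equal counts of IHC and OHC markers. At P1 they lay nearer to OHCs than to IHCs for S100a1, with 1722, 1369, 1734 and 779 CPM of S100a1, where OHCs had 1004, 943, 810.1 and 653 CPM and IHCs 5674, 5895, 5908 and 3403 CPM. Their Atp2b2 was 91.9, 109, 86.2 and 98.1 CPM, against 94.5, 125, 108 and 154 CPM in OHCs and 48.2, 46.1, 53.6 and 55.9 CPM in IHCs. At E16 their Atp2b2 was 45.2, 31.6 and 16.1 CPM, against 168, 61.5 and 38.7 CPM in OHCs and 0, 47.9 and 32.6 CPM in IHCs. For Calb2 at P1 they lay below both types, at 659.8, 523, 269 and 474 CPM.

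Supporting cells covered a range of their own. Groups here carry the name of their gate. Cells gated as inner phalangeal cells, which surround the IHCs, had 4598, 3967, 2928 and 1798 CPM of S100a1 at P1. At P7 they had 1640.4 and 933 CPM in only 7 and 10 cells, whose glia markers summed to 756 to 3177 CPM and mesenchyme markers to 449 to 1226 CPM beside 3640 to 6106 CPM of their own markers, so that the ages are not compared, and pillar and Deiters cells went from 5819, 4828, 4348 and 2304 CPM to 7974 and 9186 CPM. The 28 cells gated by Hensen markers at P7 had 2251 and 3594 CPM of S100a1 and 177 and 123 CPM of Calb1. Their KO markers summed to 13374 to 15204 CPM and their own markers to 8730 to 10561 CPM. The KO group had 13017 to 13202 CPM of KO markers and 1597 to 1993 CPM of Hensen markers. KO markers reached 7666 to 8905 CPM in ungated cells as well, so that these sums settle neither name. Cells gated by markers of interdental cells, which line the spiral limbus, had 804 and 831 CPM of Atp2b1 at E14 and 251, 394, 478 and 367 CPM at P1. Whether the E14 cells are of that type was not tested. No test was run between these groups.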
